A study of Caenorhabditis elegans with 2 samples.

Results

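Translation factor and aminoacyl-tRNA synthetase genes were examined for binding of ZTF-11 in Caenorhabditis elegans embryos. The set held the 63 nuclear protein-coding genes, of 19973 in the WBcel235 annotation, whose names begin with eif- (25 initiation factor genes) or eef- (6 elongation factor genes), or have the form of 1 letter, ars- and a digit (32 tRNA synthetase genes). Membership followed from the names alone and used no measured value. ZTF-11 carrying an eGFP tag was immunoprecipitated and the DNA sequenced from 2 biological replicates of mixed-stage embryos. Both came from whole organisms of strain OP236, genotype unc-119(ed3) III; wgIs236, where wgIs236 is an integrated transgene that supplies the tagged protein, and both pooled males and females. There was thus 1 group and no untagged or ztf-11 mutant sample to set it against, and no control library was analysed here. Bound and unbound cell types cannot be told apart in whole embryos.

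Translation begins when initiation factors bring the initiator tRNA and the messenger RNA to the small ribosomal subunit. Elongation factors then deliver charged tRNAs and move the ribosome along, and the synthetases charge each tRNA with its amino acid. All growing cells need translation, though whether each gene of the set is needed was not examined here. ZTF-11, a zinc finger protein of the Myt1 family, is a transcription factor known for its part in neurogenesis.

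The authors deposited 4 lists of peaks on ce11, the same assembly as WBcel235. The thresholded list held 721 peaks, which the authors took from the pooled list by a reproducibility filter. The pooled list held 12024 peaks from both replicates together. The 2 lists of single replicates held 30000 peaks each. The pooled list and the lists of single replicates are relaxed and reach into background. Each peak has a summit, its highest point, and a signal value from the authors, of a scale that the labels and files do not state. That signal ran from 33.9 to 938.3 in the thresholded list and from 12.3 to 938.3 in the pooled list. Rank 1 is the strongest peak of a list. A gene was counted as bound when a thresholded summit fell between 1000 bp upstream and 200 bp downstream of any 5′ end of its protein-coding transcripts. For the other lists the same window was used, and a gene is said only to have a summit there.

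A thresholded summit lay in that promoter window at 5 of these genes: ears-2, eef-1A.1, eef-1A.2, eif-3.D and eif-3.C. They were 5 of 63 members (7.94%), against 529 of all 19973 protein-coding genes (2.65%). The 721 strongest peaks of the pooled list gave the same counts, 5 members and 529 genes. In these counts the thresholded list thus acted as a cut on pooled signal. A place in it need not mean a high rank in each replicate. By class, 2 of 6 elongation factor genes, 2 of 25 initiation factor genes and 1 of 32 synthetase genes were bound. The 5 summits carried a median signal of 45.9, against 46.3 over all bound genes, so they were of middling strength within the list. With 1 group and a list of genes chosen with results of these data known, the difference in share is a description and was not tested.

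The DNA under 4 of these summits is shown, with that under eef-1G, the pooled peak that shares a stretch of sequence with eef-1A.2. Each is written 5′ to 3′ on the strand of the named gene, from the reference genome (ce11, the RefSeq copy of WBcel235), and reaches at most 100 bases to either side of the summit. All but that of eef-1G were kept clear of the exons of protein-coding genes, and that of eef-1G runs to the end of the shared stretch. Capitals mark the 21 bases centred on the summit in ears-2 (chrIV:390469-390559, minus strand), eef-1A.1 (chrIII:6971995-6972195, minus strand) and eif-3.D (chrIII:8971761-8971891, minus strand). In eef-1A.2 (chrX:7823247-7823447, plus strand) and eef-1G (chrV:10965589-10965725, plus strand) the capitals mark the run of 15 bases found in both. The last 7 bases of the eef-1G stretch lie in its annotated 5′ UTR.
ears-2: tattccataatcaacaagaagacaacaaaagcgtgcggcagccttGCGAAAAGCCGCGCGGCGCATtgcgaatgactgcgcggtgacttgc
eef-1A.1: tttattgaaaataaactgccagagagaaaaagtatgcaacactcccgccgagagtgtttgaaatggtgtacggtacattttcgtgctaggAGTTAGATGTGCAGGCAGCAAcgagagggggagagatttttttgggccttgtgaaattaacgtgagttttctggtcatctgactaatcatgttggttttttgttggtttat
eif-3.D: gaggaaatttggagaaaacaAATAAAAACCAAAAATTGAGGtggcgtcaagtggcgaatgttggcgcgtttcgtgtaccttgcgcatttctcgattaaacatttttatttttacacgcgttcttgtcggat
eef-1A.2: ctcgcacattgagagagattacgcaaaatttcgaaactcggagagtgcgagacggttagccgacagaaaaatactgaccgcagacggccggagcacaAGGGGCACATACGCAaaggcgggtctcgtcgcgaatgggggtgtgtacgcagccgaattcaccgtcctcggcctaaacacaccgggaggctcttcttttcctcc
eef-1G: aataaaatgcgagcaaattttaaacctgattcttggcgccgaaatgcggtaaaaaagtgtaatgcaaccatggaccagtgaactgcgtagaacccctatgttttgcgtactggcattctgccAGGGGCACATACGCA

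The strongest peak of the set belonged to ears-2, which encodes a glutamyl-tRNA synthetase. Its thresholded peak (chrIV:390431-390553) was only 123 bp wide and had a pooled signal of 117.0, rank 33. The signal was 70 in replicate 1 (rank 24) and 50.4 in replicate 2 (rank 45), so it stood near the top of both lists. The summit lay 36 bp upstream of ears-2 and 56 bp upstream of its divergent neighbour uncp-18. The printed ears-2 stretch is the whole gap between the first exons of these genes, and which of them the peak belongs to cannot be told from position. The other thresholded peak near ears-2, 3079 bp beyond its 3′ end, lay at the promoter of rps-24, a ribosomal protein gene, with a signal of 37.7. The paralogue ears-1 had no summit in any of the 4 lists.

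Among the elongation factor genes, both copies of eEF1A, the GTPase that brings charged tRNA to the ribosome, were bound. At eef-1A.1 the peak (chrIII:6971917-6972272) had a pooled signal of 69.8, rank 146, with 32 in replicate 1 (rank 241) and 33.2 in replicate 2 (rank 156). Its summit was 383 bp upstream of eef-1A.1 but only 158 bp upstream of rfc-4, a subunit of the replication factor C clamp loader, and the annotated miRNA gene cel-mir-5549 lay 10 bp away. At eef-1A.2 the peak (chrX:7823169-7823524) had a pooled signal of 45.9, rank 368, with 23.3 in replicate 1 (rank 489) and 19.2 in replicate 2 (rank 532). Its summit was 307 bp upstream, in the window of no other protein-coding gene, and 38 bp from the non-coding RNA gene R03G5.8. The replicates thus ranked both eEF1A peaks alike. eef-1A.2 is the only member on the X chromosome.

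The other elongation factor genes appeared in the relaxed lists, with replicate 1 ahead of replicate 2. At eef-1G, a subunit of the exchange factor that reloads eEF1A with GTP, the pooled signal was 31.4 (rank 865), just under the lowest thresholded value of 33.9. It was 19.3 in replicate 1 (rank 793) and 6.35 in replicate 2 (rank 12240), a far lower place in the second list. The eef-1G summit was 30 bp upstream of the gene, and 150 bp upstream of ctf-4, its divergent neighbour. At eef-1B.2, another exchange factor gene, the pooled signal was 20.5 (rank 2410), with 13.4 in replicate 1 (rank 2710) and 5.67 in replicate 2 (rank 15975), and the summit fell in the 3′ UTR of fcd-2. At eef-2, whose product moves the ribosome by a codon, the pooled signal was 17.6 (rank 3786), with 14 in replicate 1 (rank 2330) and 8.06 in replicate 2 (rank 6383). The last elongation gene, eef-1B.1, had a summit in the replicate 1 list only, with a signal of 5.98.

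Among the initiation factor genes, the 2 with thresholded summits both encode subunits of eIF3, the scaffold that holds the initiation complex on the small subunit. At eif-3.D the peak (chrIII:8971683-8972038) had a pooled signal of 45.2, rank 381, with 28.8 in replicate 1 (rank 300) and 12.8 in replicate 2 (rank 1546). The summit was 283 bp upstream of eif-3.D and 31 bp upstream of the divergent gene R08D7.4. At eif-3.C the peak (chrI:9979754-9980109) had a pooled signal of 38.8, rank 531, with 26.8 in replicate 1 (rank 363) and 9.77 in replicate 2 (rank 3445). Its summit was 270 bp upstream of eif-3.C and in the window of no other gene. Neither eIF3 peak was among the 721 strongest of replicate 2, so their place in the thresholded list rests more on replicate 1 than that of the eEF1A and ears-2 peaks does.

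Of the 11 eIF3 genes named eif-3, 6 had a pooled summit, against 22.4% of all protein-coding genes: eif-3.B, eif-3.C, eif-3.D, eif-3.E, eif-3.H and eif-3.I. The pooled signal was 23.3 at eif-3.H (rank 1659), with 15.4 in replicate 1 and 7.14 in replicate 2, and 20.1 at eif-3.I (rank 2539), with 11.4 in replicate 1 and 9.44 in replicate 2. eif-3.F and eif-3.L had no summit in any list. The eIF3 subunit genes egl-45 and cif-1, which are named otherwise and are not members, had no pooled summit. Of the 3 genes for eIF2, which carries the initiator tRNA, 2 had a pooled summit. The stronger was at eif-2gamma, its GTP-binding subunit, at 25.7 (rank 1300), with 17.8 in replicate 1 and 11.1 in replicate 2, whose summit lay 226 bp from the pooled one. Of the 5 genes for eIF2B, which recharges eIF2 with GTP, 3 had a pooled summit and none a thresholded one.

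The member closest under the threshold was eif-2Bgamma, with a pooled signal of 33.5 at rank 736. Its pooled summit lay 908 bp upstream, in an intron of C15F1.5 and inside the non-coding RNA gene C15F1.14, with 20.3 in replicate 1 (rank 699) and 12.3 in replicate 2 (rank 1740). Replicate 2 also had a slightly stronger summit, at 13.3, elsewhere in this window. At eif-2Bdelta the pooled signal was 18.4 (rank 3355), with 15.5 in replicate 1 (rank 1617) and 4.98 in replicate 2 (rank 20792), whose summit lay 308 bp from the pooled one. The second-highest synthetase peak was at rars-1, an arginyl-tRNA synthetase gene, with a pooled signal of 26.4 (rank 1210), 12.2 in replicate 1 and 11.9 in replicate 2. It lay 972 bp upstream of rars-1 and much closer to rpb-8, which encodes an RNA polymerase subunit, at 141 bp.

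**Figure D1:**
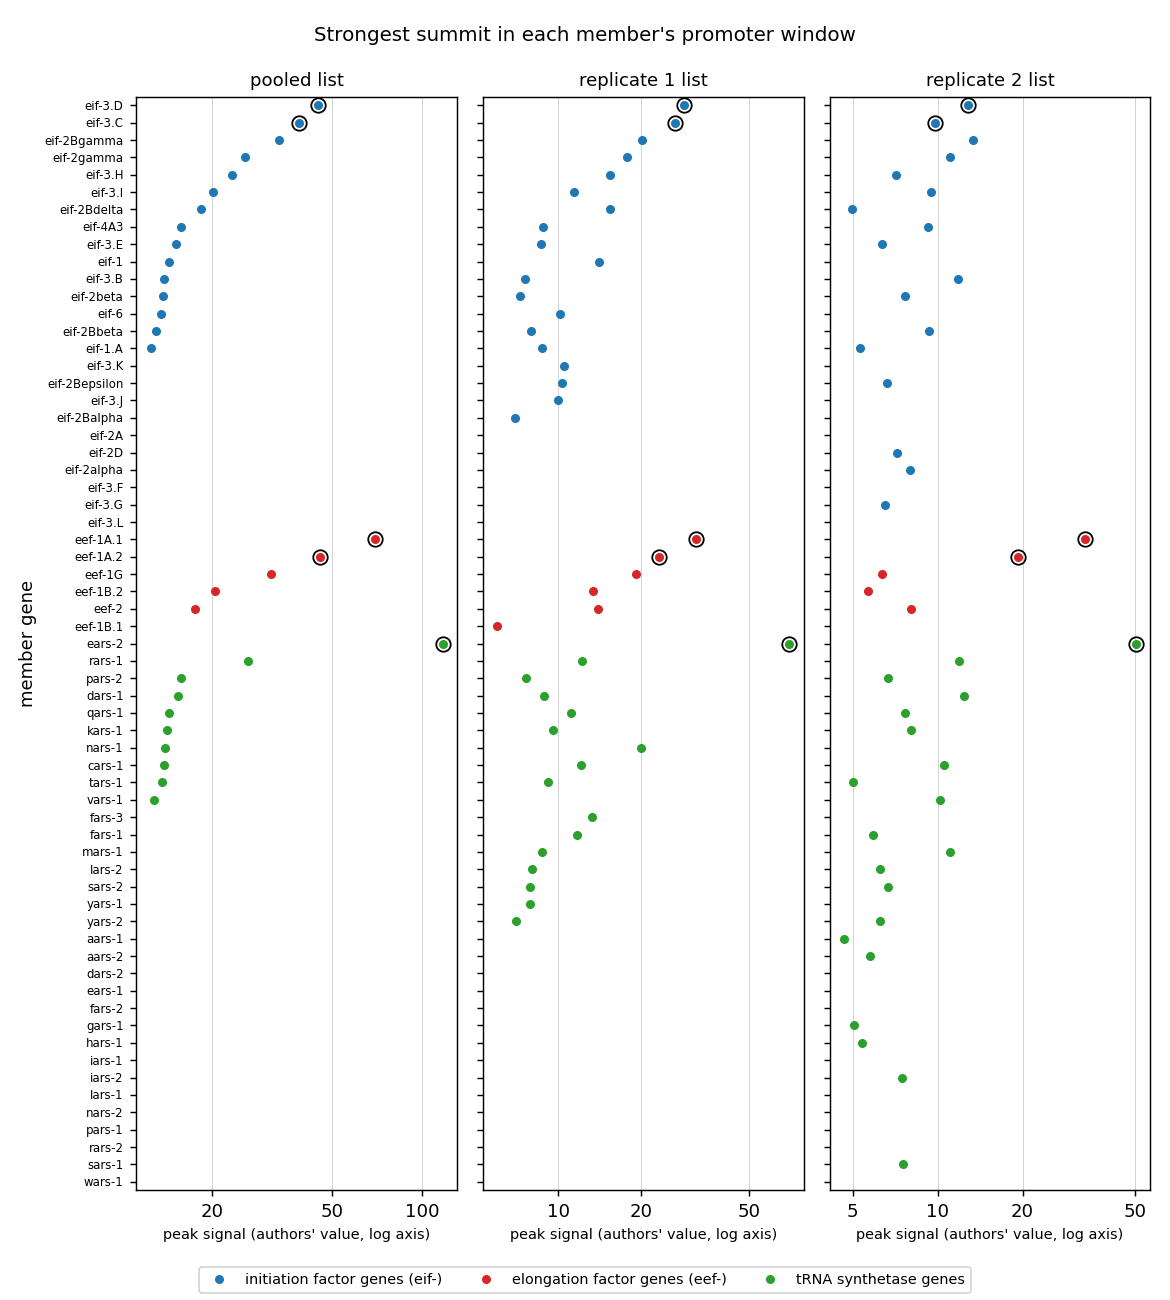
Signal of the strongest summit in the promoter window of each of the 63 members (rows) in the pooled, replicate 1 and replicate 2 lists, on log axes, coloured by class; black rings mark the 5 genes with a thresholded summit. ears-2 stands apart at 117.0 in the pooled list, and rows without a point had no summit in that list.

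The plot of signal by member shows a few strong peaks above a long run of weak ones. In the pooled list 30 members had a summit (47.6%), against 22.4% of all protein-coding genes. This held 15 of 25 initiation factor genes (60%), 5 of 6 elongation factor genes (83.3%) and 10 of 32 synthetase genes (31.2%). Their median signal was 15.7, against 16.7 over all genes with a pooled summit. The members therefore had pooled summits more often than genes in general, and the median pooled signal of these summits was not higher.

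Members also had summits more often than all genes in each replicate list. In replicate 1, 41 members (65.1%) had a summit, against 41.5% of all genes, with a median signal of 10.5 against 8.89. In replicate 2, 42 members (66.7%) had one, against 41.9% of all genes, with a median signal of 7.59 against 6.57. A summit in both lists was found for 32 members (50.8%), against 24% of all genes. These were 14 initiation, 5 elongation and 13 synthetase genes. At these relaxed depths a large share of all genes had a summit, and a listing there is weak evidence of binding at any 1 gene.

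The lists of single replicates were then read only as deep as the thresholded list, to the 721 strongest peaks. In replicate 1, 7 members (11.1%) had such a summit, against 2.5% of all genes: the 5 thresholded genes, eif-2Bgamma and nars-1. In replicate 2, 3 members (4.76%) had one, against 2.33% of all genes: ears-2, eef-1A.1 and eef-1A.2. The same 3 genes made up the members found in both, 4.76% against 1.37% of all genes. nars-1, an asparaginyl-tRNA synthetase gene, had a signal of 20.1 in replicate 1 at rank 721 and no summit in replicate 2.

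**Figure D2:**
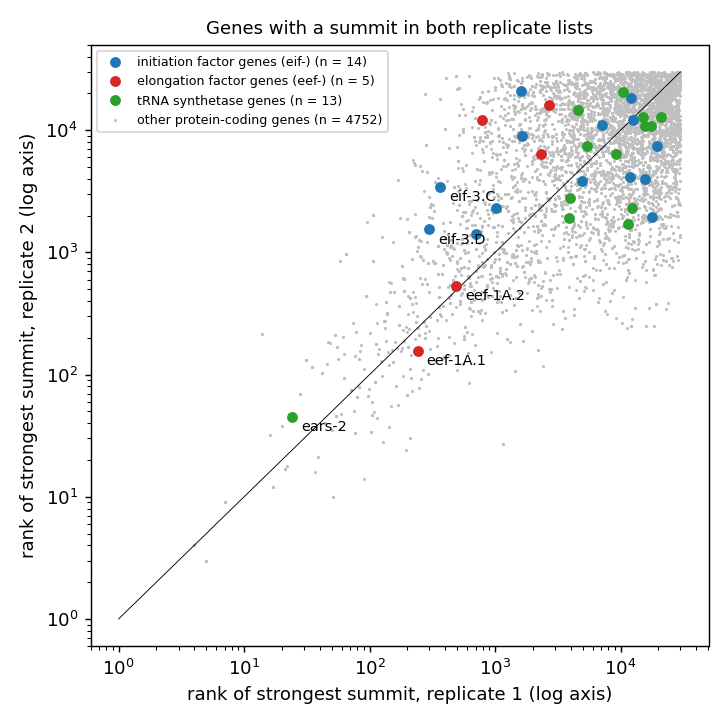
Rank of the strongest summit in the promoter window in replicate 1 (horizontal) and replicate 2 (vertical), both on log axes where 1 is the strongest, for the 32 members (coloured) and the other protein-coding genes (grey) with a summit in both lists; the line marks equal ranks. ears-2, eef-1A.1 and eef-1A.2 lie near the line, and eif-3.C and eif-3.D lie above it, weaker in replicate 2.

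The plot of replicate ranks shows that the replicates placed ears-2 and both eEF1A genes alike and many other members far apart. Of the 32 members, 16 ranked higher in replicate 1 and 16 in replicate 2, and over all 4784 such genes 2342 (49%) ranked higher in replicate 1. By class, 4 of 5 elongation genes, 8 of 14 initiation genes and 4 of 13 synthetase genes ranked higher in replicate 1. The median rank of the elongation genes was 793 in replicate 1 and 6383 in replicate 2. The initiation genes had a median rank of 6011 in replicate 1 and 4045 in replicate 2. That of the synthetase genes was 10501 in replicate 1 and 7445 in replicate 2, deep in both lists. Differences between the classes were not tested.

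**Figure D3:**
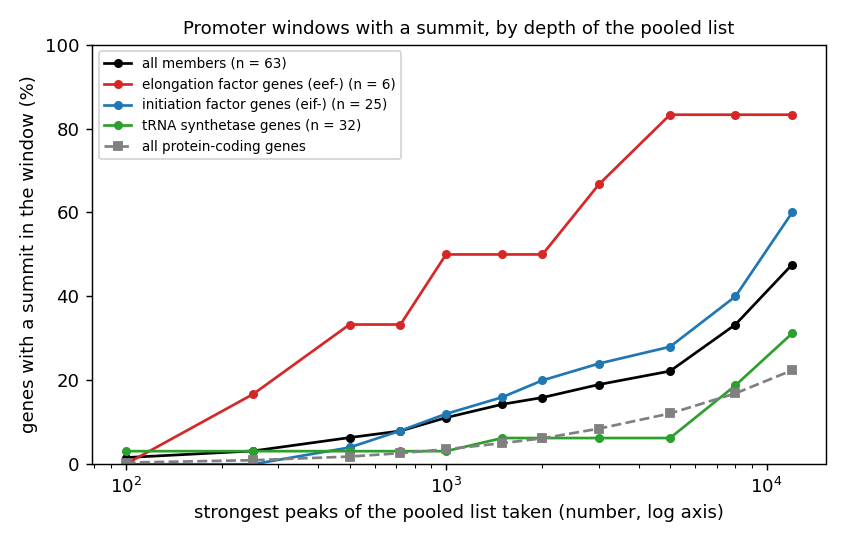
Percentage of genes (vertical) with a summit in the promoter window as more of the strongest pooled peaks are taken (horizontal, log axis), for all 63 members, each class and all protein-coding genes. The elongation genes are highest from 250 peaks on, and the synthetase genes are under all genes at 1000, 3000 and 5000 peaks and over them at the other depths.

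The share of members with a summit was above that of all genes at every depth of the pooled list that was read, as the plot by depth shows. Among the 250 strongest peaks it was 3.17% of members and 0.966% of all genes. Among the 1000 strongest it was 11.1% of members and 3.56% of all genes, and among the 5000 strongest 22.2% and 12.1%. The synthetase genes crossed the line of all genes more than once. They were under it at 1000 peaks (3.12%) and at 3000 and 5000 peaks (6.25% at both, against 8.49% and 12.1% of all genes). They were over it at 1500 peaks (6.25%, against 5.04%), at 8000 peaks (18.8%, against 16.9%) and at the other depths read. ears-2 and rars-1 were the synthetase genes with a summit among the 5000 strongest, and that of rars-1 was not in the thresholded list.

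No list had a summit for 12 members (19%), against 40.4% of all genes. These were the initiation factor genes eif-2A, eif-3.F and eif-3.L and the synthetase genes dars-2, ears-1, fars-2, iars-1, lars-1, nars-2, pars-1, rars-2 and wars-1. The replicate 1 list alone held 6 (9.52%, against 14% of all genes): eef-1B.1, eif-2Balpha, eif-3.J, eif-3.K, fars-3 and yars-1. The replicate 2 list alone held 9 (14.3%, against 15.7% of all genes): aars-1, aars-2, eif-2D, eif-2alpha, eif-3.G, gars-1, hars-1, iars-2 and sars-1. Both replicate lists but not the pooled one held 6 (9.52%, against 7.57% of all genes): eif-2Bepsilon, fars-1, lars-2, mars-1, sars-2 and yars-2.

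The bound members were alike in the position of their summits, which the choice of genes by name did not use. The rule for counting a summit had already limited that position, and most bound genes of any kind shared it. With 5 peaks the difference from all bound genes was not tested. All 5 thresholded summits lay within 500 bp upstream of the member, as did 69.2% of those over all bound genes. In the pooled list 23 members (76.7%) had the summit there, against 57.9% of all genes with one. In replicate 1 it was 63.4% of the members and 51% of all genes, and in replicate 2 it was 57.1% and 50.8%. The 5 peaks were also all intergenic, against 296 of the 386 other promoter peaks of the thresholded list (76.7%).

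**Figure D4:**
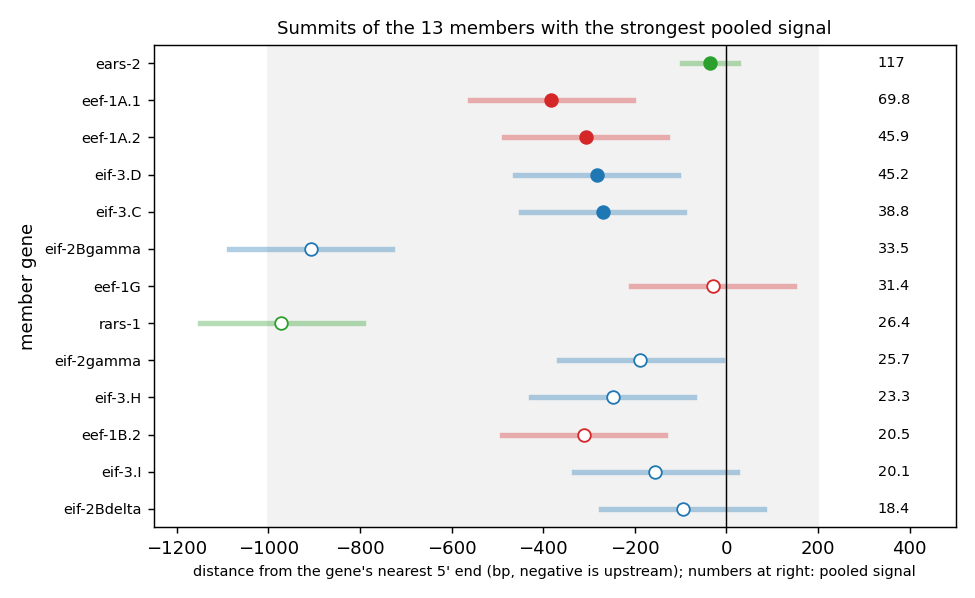
Distance of the pooled summit from the nearest 5′ end of the gene, in bp with upstream negative, for the 13 members with the strongest pooled signal; bars span the peak, filled circles mark thresholded peaks, colours give the class as in the plot of signal by member, shading marks the window and numbers at right give the pooled signal. The summits of 11 members lie within 383 bp upstream, and those of eif-2Bgamma and rars-1 lie near the far edge of the window.

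Beyond the map of summit positions, the 5 member peaks could be set beside the 386 other promoter peaks. The window of another protein-coding gene held the summit in 3 of 5 member peaks (60%) and in 33.7% of the others. An annotated non-coding RNA gene lay within 250 bp of 2 member peaks (40%) and of 25.6% of the others. The GC content of the 201 bp around the summit had a median of 40.8% in member peaks, from 39.3% to 56.2%, and of 47.3% in the others. eef-1A.2 was the member at 56.2%. Every 32-base word of the 5 member peaks occurred once in the genome. The distance to the next gene upstream was also alike, with a median of 401 bp for the 5 bound members and 401.5 bp for the other 58.

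Where the genes lie differed from the genome at large. Of the members, 21 (33.3%) were on chromosome I, against 14.4% of all genes, 7 (11.1%) were on chromosome V, against 25%, and 1 (1.59%) was on X, against 13.7%. The part of this in the shares of bound genes was not tested. Outside the promoter windows, a thresholded summit fell inside the body of 1 member, fars-1, against 0.991% of all genes. It lay in an intron, had a signal of 47, and was in the window of mrpl-23, a mitochondrial ribosomal protein gene, within the non-coding RNA gene T08B2.14.

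The 201 bases around each of the 5 summits were searched for short motifs on both strands. The Myt1 family core AAAGTTT was in none of the 5 member peaks, 6.74% of the other promoter peaks and 16.2% of stretches of the same length that end at the outermost 5′ end of each gene. Its shorter form AAGTT, which every AAAGTTT contains, was in 1 member peak (eif-3.C), 25.4% of the other promoter peaks and 55.2% of the stretches. TTTGAA, a cell cycle element, was in 1 member peak (eef-1A.1, starting 44 bases upstream of the summit), 29.5% of the other peaks and 50% of the stretches. TTTCAG, which resembles a splice acceptor, was in 1 member peak (eif-3.C), 11.9% of the others and 37.1% of the stretches. The E-box CACGTG, the TATA box TATAAA, the E2F-like GCGGGAA, the tRNA gene B box start GGTTCGA and the stress response core TGATGNAA were in none of the 5 within 100 bp. Among the other promoter peaks these motifs were in 4.66%, 12.2%, 4.66%, 3.37% and 3.63%, in that order. Within 200 bp of the summit, TATAAA and TTTGAA were each in 3 of the 5 member peaks, AAGTT and TTTCAG each in 2 and AAAGTTT in 1 (eif-3.C). At that distance these motifs were in 25.9%, 52.8%, 53.4%, 38.1% and 15.8% of the other promoter peaks, in that order. The stretches at 5′ ends, at the matching length, held them in 47.4%, 74.8%, 80.3%, 57.6% and 30.1%. A match or its absence in so short a window says nothing of the factor.

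The longest stretch that any pair of the 13 named member peaks shared was the 15-base run capitalised in eef-1A.2 and eef-1G, both genes of the eEF1 machinery. The whole genome held it 5 times on either strand. In eef-1A.2 it spans the summit, at chrX:7823344-7823358, and in eef-1G it ends inside the 5′ UTR, at chrV:10965711-10965725. A pair of copies, at chrII:6588985-6588999 and chrII:6589028-6589042, lay inside a thresholded peak of signal 58.3 (rank 227) with signals of 29.6 in replicate 1 and 27.2 in replicate 2. The nearest 5′ end there, 337 bp from the nearer copy, was that of icd-1, which encodes the beta subunit of the complex that binds nascent chains as they leave the ribosome. The remaining copy, at chrIV:4131740-4131754, was 4097 bp from a 5′ end and inside no thresholded, pooled or replicate 1 peak. It lay in a replicate 2 peak of signal 4, rank 29683 of 30000, with the summit 118 bp away. In all, 3 of the 5 copies were inside thresholded peaks, 4 inside pooled and replicate 1 peaks, and 5 inside replicate 2 peaks.

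The run was looked for after the peaks were known, and no test was made of it. Of the 78 pairs of named member peaks, 1 (1.28%) shared a run of at least 15 bases, as did 0.392% of the 76245 pairs among all thresholded promoter peaks. These sets are unlike, because 8 of the named member peaks, that of eef-1G among them, were in the pooled list but not the thresholded one. Runs of at least 12 bases were shared by 5 member pairs (6.41%), among them eif-3.C with eif-3.D, and by 3.11% of pairs among the promoter peaks.

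Translation genes with other kinds of names were read in the same way. A thresholded summit was found at 6 of 40 such genes (15%), against 7.94% of the members and 2.65% of all protein-coding genes. A pooled one was found at 14 of these genes (35%), against 47.6% of the members and 22.4% of all genes. This list too was chosen with results of these data known, and the differences were not tested. In 5 of the 6 the signal was above the members' median of 45.9. The highest was at ifet-1, the homologue of the eIF4E-binding repressor 4E-T, with a signal of 88.7 (rank 77). It was followed by larp-1, a La-related RNA-binding protein gene, at 86 (rank 85), and drr-2, an eIF4H-like factor gene, at 84.4 (rank 88). Then came erfa-3, a release factor gene, at 74.9 (rank 123), iff-2, an eIF5A gene, at 62.3 (rank 197), and pab-2, a poly(A)-binding protein gene, at 43.7 (rank 415). The first 5 shared their summits with the windows of rps-1, wip-1, set-16, math-33 and F54C9.14, in that order, and pab-2 was alone. The replicates ranked the ifet-1 peak 55 and 169 and the pab-2 peak 253 and 931, in replicate 1 and replicate 2.

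The count of 5 bound members depended on how a peak was given to a gene. When each summit went only to the gene with the nearest 5′ end, ears-2, eef-1A.2 and eif-3.C remained, 3 of 63, against 1.92% of all genes. rfc-4 and R08D7.4 then took the peaks of eef-1A.1 and eif-3.D. With thresholded peaks at or above the list's median signal, ears-2 and eef-1A.1 remained, against 1.32% of all genes.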

How the data were processed

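Peak lists on ce11 from ChIP-seq of 2 biological replicates were used. Per the deposited listing of files, the authors made a relaxed list from each replicate with a control, a pooled list from both, and a thresholded list by the irreproducible discovery rate. The deposited values are a signal per peak; its scale, the depth, the aligner and the peak caller were not given in the sources used here. Lists were compared by rank. All 721 thresholded peaks were identical to pooled ones. Versions of the same lists on ce10 were not used.

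Summits were placed in windows of 1000 bp upstream to 200 bp downstream of 5′ ends of protein-coding transcripts (Ensembl release 115, WBcel235), leaving out 12 mitochondrial genes, with Python 3.11.15 and pandas 2.3.3. Window assignment was tested on simulated data. The genes and lists were chosen with earlier results of these data known. Genes were named by rule: members and other translation genes with a thresholded summit, the 8 further members with the highest pooled signal, and genes sharing their peaks. eef-2, nars-1, fars-1, icd-1 and genes in counts were named after their values were seen. Of 55 names listed as other translation genes, 14 were unmatched and 1 was a member. Alternatives were other windows, nearest-gene assignment, stricter and looser peak sets, overlap in place of the summit, motif searches within 50 and 200 bp, and each replicate alone. No test was possible with 1 group.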

Additional observations from a re-analysis of the deposited data

How the results depend on the processing

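The count of 5 members with a thresholded summit was the same with both other windows, with overlap, and with 5′ ends of all transcripts, an alternative chosen after seeing the data. The share of all genes did move, to 1.95% with the narrower window, 3.51% with the wider one, 2.86% with overlap and 2.66% with all transcripts. The count of members was 3 with the nearest 5′ end alone, 2 with peaks at or above the median signal, and 9 with 2 times as many of the strongest pooled peaks, against 1.92%, 1.32% and 4.91% of all genes. From 1 replicate at a time it ran from 3 (without replicate 1) to 7 (without replicate 2). The count of 32 members in both replicate lists became 18 with the nearest 5′ end, against 18.7% of all genes. It became 17 with as many of the strongest peaks of each as the pooled list holds, against 10.3%. With the narrower window it was 22, with the wider one 43 and with overlap 37, against 13.1%, 42.1% and 29.3%. The cause was not tested. The pooled count of 30 ran from 20 with the nearest 5′ end to 36 with the wider window, against 18.3% and 32.8% of all genes. Counts of motifs changed for 5 of the 9 when the search reached 200 bp and for 2 at 50 bp. No paired analysis was possible because there was 1 group. Signal and rank, in place of read depth, limit each statement.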
